A study of Columba livia with 12 samples.

Results

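Small RNA libraries from the livers of white king pigeons, a breed of the domestic pigeon (Columba livia), were compared across the interval between 14 and 28 days of age. The later side held 6 libraries, 3 from birds of 28 days (28d) and 3 from birds of 2 years (2y). The earlier side held 6 libraries, 3 from birds of 1 day (1d) and 3 from birds of 14 days (14d). Each library was made from the liver RNA of 1 bird, and no treatment, genotype or strain other than the breed is named. The labels call the birds of 1d, 14d and 28d squabs of mixed sex and those of 2y parent birds of both sexes, without giving the sex of the sequenced birds or saying whether the squabs had fledged. The descriptions of replicates 2 and 3 of 1d name pigeons of 2 and 3 days, while their titles and stage labels say 1d, and the titles were used.

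All 1039 mature miRNA names of the count table belonged to the comparison. Of these, 102 had no count in any library and 345 passed a filter on low counts and were tested, namely 236 with pigeon names, 56 with conserved names and 53 with predicted names. Pigeon names are printed without their species prefix. Total counts were 3100273 to 9393075 per library, and birds of the same age gave counts that differed by more than sampling noise, so p-values measure the spread between birds. Levels are CPM, counts scaled to a common library size after TMM normalization. Log2 fold changes come from an edgeR quasi-likelihood fit, with adjusted p under 0.05 as the threshold. They are the mean of the fitted log2 levels of 28d and 2y minus that of 1d and 14d. A fold change can thus differ from the ratio of the mean CPM of the sides. No batch is labelled.

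A miRNA is cut from a hairpin with a 5p and a 3p arm. One arm is usually loaded into an Argonaute protein and guides it to messenger RNAs that match its seed, while the other arm is mostly degraded, so the arms of one hairpin can differ in level by orders of magnitude. In the liver, miRNAs act on hepatocyte differentiation, lipid and cholesterol handling, cell growth and the matrix laid down by stellate cells. Pigeon squabs hatch helpless and are fed crop milk by their parents before they change to grain.

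The later livers carried more of miRNAs known from differentiated hepatocytes (miR-148a-3p and miR-215-5p), from smooth muscle and other mesenchymal cells (miR-143-3p and miR-145-3p) and from the collagen-repressing miR-29 family. They carried less of miR-222a-3p, a growth-promoting miRNA in mammals, and of miR-92, miR-106, miR-18b, miR-20b and miR-363 from the miR-17-92 and paralog clusters. No form of miR-17, miR-19 or miR-20a from these clusters fell with TMM, and miR-20a-5p and miR-19b-3p were higher. Levels of miR-148a-5p and miR-26-3p, the less abundant arms of their hairpins, were also lower. Another name form of the miR-148a 5p arm, conserve-miR-148a-1-5p, was higher with TMM. The more abundant arm of miR-145, miR-145-5p, did not pass. Over the 6 and 6 libraries, 69 of 345 miRNAs were higher in 28d and 2y livers, which is 20% of those tested, and 63 were lower, which is 18.3%, or 38.3% in either direction. A miRNA was called held when it passed in one direction in all 4 pairs of ages across the interval and when its CPM did not overlap between the 6 and the 6 libraries. By that rule 21 miRNAs were held higher (6.09% of those tested) and 11 held lower (3.19%), or 9.28% in either direction, all with pigeon names. Libraries of the sides did not overlap for 32 miRNAs that were higher (9.28%) and 27 that were lower (7.83%) in 28d and 2y livers, 17.1% in all. In a bulk liver sample, fewer cells of a type and less RNA per cell cannot be told apart.

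The count of held falls depended on single libraries and that of held rises less so. Leaving out 1 library at a time gave 15 to 21 held rises. Held falls numbered 18 without 28d replicate 1 and 8 without 1d replicate 1, 14d replicate 1 or 28d replicate 2. They numbered 7 without 1d replicate 2, 1d replicate 3, 14d replicate 2, 28d replicate 3 or 2y replicate 1, 6 without 2y replicate 3, 5 without 2y replicate 2 and 4 without 14d replicate 3. Without both of the 1d libraries described with another day, 1d replicate 1 is the only library of its age, so no count of held miRNAs is given for that fit.

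The scaling of the libraries set how many miRNAs were called in each direction. TMM factors were 0.512 to 0.953 in 28d and 2y livers and 1.30 to 1.96 in 1d and 14d livers, so the sides did not overlap. With the library sizes set by total count alone, 20 miRNAs were higher (5.8%) and 150 lower (43.5%), none was held higher and 45 were held lower. The median log2 fold change of all 345 miRNAs was -0.18 with TMM and -1.38 with total count alone. Of the 21 held rises, 13 were also higher in 28d and 2y livers by total count, 7 were not called and kept their direction, and 1, miR-146c-3p, had a log2 fold change of -0.12 and was not called. All 11 held falls were held by total count too, and all 63 falls were called. Total count lowers the log2 fold changes and so favours falls, which means that these counts do not test the falls. A total of 19 miRNAs were higher and 53 lower under all 6 scalings and tools tried, and these included 13 held rises and 11 held falls. The downward shift with total count favours falls in this tally too.

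**Figure D1:**
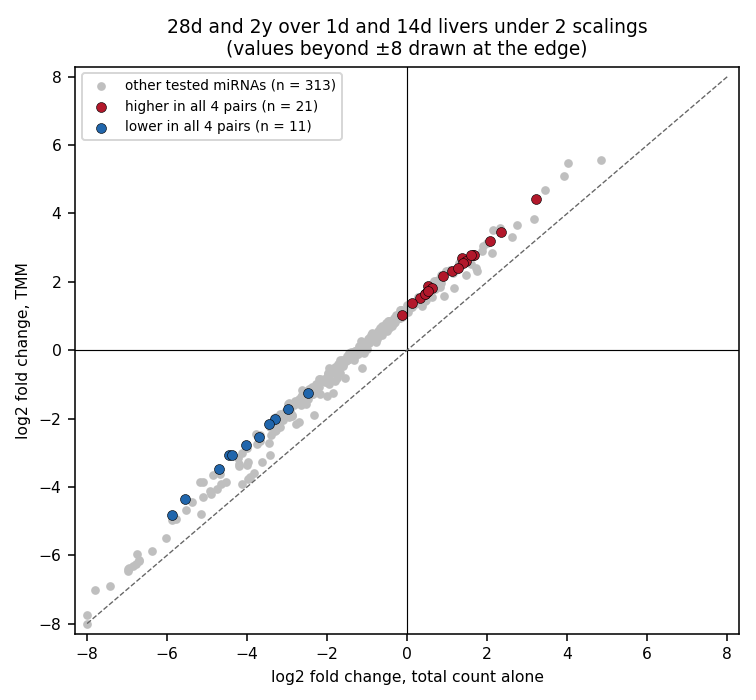
Log2 fold change of 28d and 2y over 1d and 14d livers for 345 miRNAs with TMM (vertical axis) and with total count alone (horizontal axis); red points are the 21 miRNAs held higher, blue points the 11 held lower, and the dashed line marks equal values. The points lie above the line, the red points are all above 0 on the vertical axis, and 1 of them, miR-146c-3p, is below 0 on the horizontal axis.

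On log2(CPM + 1), the first principal component held 31.4% of the variance and separated the sides, at 10.1 to 14.5 in 28d and 2y libraries and at -14.8 to -9.22 in 1d and 14d libraries. The second component held 22% and ran from 9.4 to 17 in 1d libraries and from -17.2 to -14.8 in 14d libraries, while the 28d and 2y libraries lay between 0.38 and 1.67. The earlier side was thus made of 2 distinct ages, and the later side of 2 ages that lay together on these components. At 14d, 58 miRNAs were higher than at 1d (16.8% of those tested) and 49 were lower (14.2%), 31% in all. At 28d, 54 were higher than at 14d (15.7%) and 43 lower (12.5%), 28.1% in all. The other pairs across the interval gave 67 higher (19.4%) and 35 lower (10.1%) at 28d than at 1d, which is 29.6%, and 50 higher (14.5%) and 45 lower (13%) at 2y than at 1d, which is 27.5%. At 2y, 46 were higher than at 14d (13.3%) and 56 lower (16.2%), which is 29.6%. Between 2y and 28d, 0 passed in edgeR with 39 at an unadjusted p under 0.05, 0 passed in limma voom with 42 unadjusted, and 19 passed in DESeq2, 9 higher and 10 lower at 2y.

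**Figure D2:**
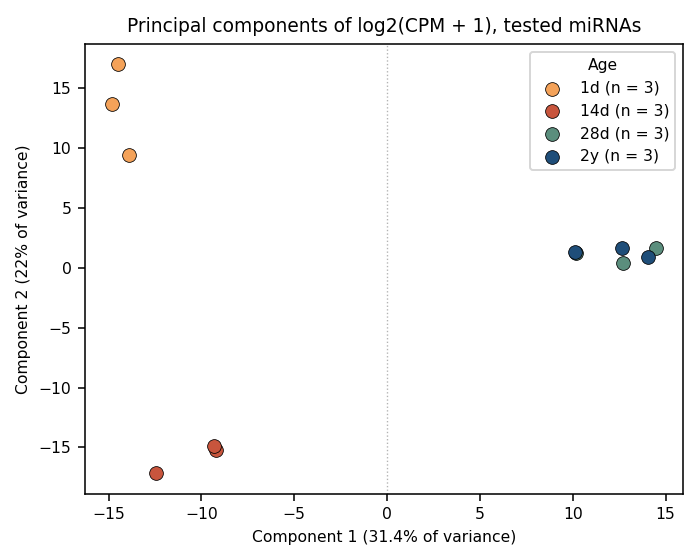
First and second principal components of log2(CPM + 1) over 345 miRNAs, 1 point per library and colour by age, with the share of variance on each axis. The 6 libraries of 28d and 2y lie at 10.1 to 14.5 on the first component, and the 6 of 1d and 14d at -14.8 to -9.22.

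For 20 of the 21 held rises and 10 of the 11 held falls, the largest difference between successive ages lay between 14d and 28d. The exceptions were miR-1388-5p and miR-106-3p, which moved most between 1d and 14d. Among all miRNAs that passed over the 6 and 6 libraries, that step was the largest for 49 of 69 rises and 40 of 63 falls. The median absolute log2 difference of the 32 held miRNAs was 0.79 between 1d and 14d, 2.40 between 14d and 28d and 0.35 between 28d and 2y, against 1.30, 1.39 and 0.62 over all 345. Since the rule for holding chooses miRNAs that differ across the interval, these medians describe the members and test nothing. Of the 32 held miRNAs, 10 also differed between 14d and 1d. miR-190-5p, miR-190-3p, miR-101-3p and miR-148a-3p were lower at 14d than at 1d before being higher at 28d, and miR-29a-3p, miR-1388-5p and miR-10a-5p were already higher at 14d. The held falls miR-26-3p, miR-148a-5p and miR-106-3p were already lower at 14d than at 1d.

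The held rises took up more of the library than their number. Their raw share of all counts was 59.9 ± 3.77% in 28d and 2y livers and 37.1 ± 7.99% in 1d and 14d livers (SD, n = 6 each). By age the share was 43.4 ± 3.91% (1d), 30.8 ± 4.99% (14d), 59.6 ± 5.83% (28d) and 60.2 ± 1.16% (2y) (SD, n = 3 each). The held falls had 0.123 ± 0.0720% in 28d and 2y livers and 2.30 ± 1.20% in 1d and 14d livers. The held falls were therefore a small part of the counts on either side, and the held rises the larger part of them on the later side. Since the rule for holding chose these miRNAs by their levels on the sides, these shares describe the members and test nothing. A few names weighed heavily, as both arms of miR-26 had 20.9 ± 4.25% of counts in 28d and 2y livers and 14.6 ± 3.84% in 1d and 14d livers.

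**Figure D3:**
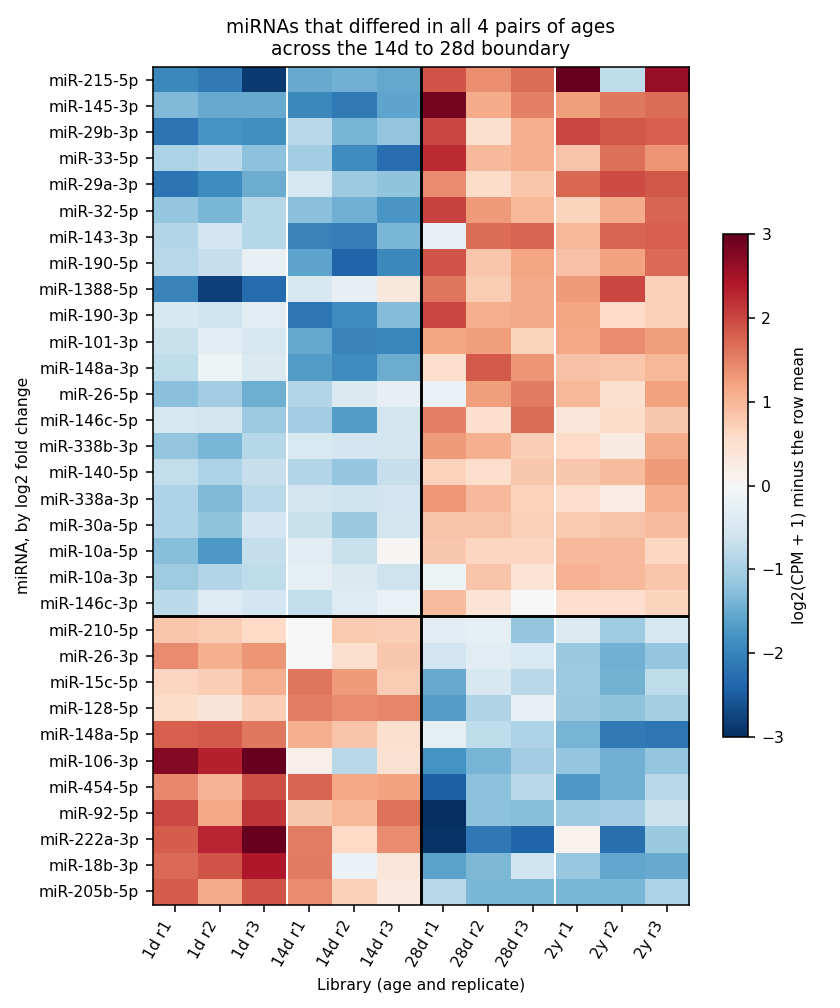
Log2(CPM + 1) minus the mean of the row for the 21 miRNAs held higher (above the black line) and the 11 held lower (below it) in each of the 12 libraries, with ages in order from 1d to 2y and a vertical line between 14d and 28d. Red is above and blue below the row mean. The switch in colour falls at the vertical line in most rows, for which the rule for holding chose them. miR-1388-5p and miR-106-3p already differ between 1d and 14d.

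Over all 345 miRNAs, the base for the list counts below, 20% rose and 18.3% fell with TMM, and 5.8% and 43.5% with total count. Among the hepatocyte-enriched list (miR-148a, miR-194 and miR-215), 4 mature forms were tested, of which 3 rose and 1, miR-148a-5p, fell, with TMM and with total count alike. miR-148a-3p, an abundant hepatocyte miRNA that represses the LDL receptor in mammals, was at 200766, 265553 and 498335 CPM in 28d and 2y livers (lowest, median and highest) and at 37371, 65914 and 126004 CPM in 1d and 14d livers. The sides did not overlap, and the fitted difference was 4.48-fold (log2 fold change 2.16 ± 0.23 SE, adjusted p = 5.37e-05). Its mean by age was 103804 CPM (1d), 43381 CPM (14d), 348764 CPM (28d) and 259192 CPM (2y), so 14d livers had the lowest level of the 4 ages. With total count it kept its direction and its call over the 6 and 6 libraries (log2 fold change 0.88, adjusted p = 0.000259) but was not held. The raw share of counts of the whole list was 17.8% (1d), 6.03% (14d), 20.9% (28d) and 17.4% (2y).

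miR-215-5p, which is expressed from one cluster with miR-194 in mammals and marks liver and gut epithelium there, had the largest held rise. It was at 82.1, 486 and 3327 CPM in 28d and 2y livers and at 18.2, 42.1 and 51.3 CPM in 1d and 14d livers. No library of the later side was as low as the highest of the earlier side, but the 2y birds ranged widely, with a mean of 1426 ± 1693 CPM (SD, n = 3). The fitted difference was 21.3-fold (log2 fold change 4.41 ± 0.70 SE, adjusted p = 0.000708), and without 2y replicate 1 it was 3.66 on the log2 scale (adjusted p = 0.000843). miR-194-5p was at 4.16, 68.1 and 185 CPM in 28d and 2y livers and at 1.95, 6.65 and 34 CPM in 1d and 14d livers. Its libraries overlapped, so it was not held, and its difference of 11.9-fold passed over the 6 and 6 libraries (adjusted p = 0.00711).

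Mesenchymal miRNAs (miR-214, miR-199, miR-145 and miR-143) had 6 rises and 0 falls among 8 tested forms with a median log2 fold change of 0.82, and 2 rises and 2 falls with total count. miR-143-3p, which with miR-145 keeps vascular smooth muscle differentiated in mice, was at 58458, 220804 and 235777 CPM in 28d and 2y livers and at 16457, 31484 and 45292 CPM in 1d and 14d livers. The lowest of the later libraries was above the highest of the earlier ones, and the difference was 6.49-fold (log2 fold change 2.70 ± 0.34 SE, adjusted p = 0.000165). miR-145-3p was at 407, 550.7 and 1386 CPM in 28d and 2y livers and at 42.3, 63.3 and 74.0 CPM in 1d and 14d livers, an 11-fold difference (log2 fold change 3.46 ± 0.31 SE, adjusted p = 3.13e-05). The other arm, miR-145-5p, did not pass, at 699, 1448 and 2601 CPM in 28d and 2y livers and 246, 1250 and 2210 CPM in 1d and 14d livers (adjusted p = 0.144). miR-199-3p rose 2.97-fold (adjusted p = 0.000543) and was not called with total count.

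The miR-29 family represses collagens and other matrix genes in mammals. Of 4 tested forms 3 rose and 0 fell, with TMM and with total count, and the median log2 fold change was 2.85. miR-29a-3p was at 761, 1561 and 2030 CPM in 28d and 2y livers and at 112, 204 and 360 CPM in 1d and 14d livers. Its rise was 6.92-fold (log2 fold change 2.79 ± 0.22 SE, adjusted p = 2.18e-05) without overlap, and it was also higher at 14d than at 1d. miR-29b-3p was at 118, 304 and 346 CPM in 28d and 2y livers and at 17.4, 27.9 and 46.9 CPM in 1d and 14d livers, a 9.09-fold rise (log2 fold change 3.18 ± 0.27 SE, adjusted p = 2.66e-05). Both were held under every alternative run except total count. The other 2 forms were miR-29a-5p, which rose 7.55-fold (adjusted p = 0.00184) at no more than 8.47 CPM, and miR-29b-5p, which did not pass (adjusted p = 0.165).

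In the lipid metabolism list (miR-33, miR-103, miR-107 and miR-27) 2 of 6 forms rose and 0 fell, against 1 rise and 4 falls with total count. miR-33-5p, whose gene is within SREBF2 and which represses the cholesterol exporter ABCA1 in mammals, was the held member. It was at 112, 142.9 and 290 CPM in 28d and 2y livers and at 11.7, 27.3 and 35.2 CPM in 1d and 14d livers. No libraries overlapped, and the rise was 6.93-fold (log2 fold change 2.79 ± 0.32 SE, adjusted p = 0.0001). miR-27b-3p, which acts on lipid and angiogenesis genes in mammals, was 1.65-fold higher with TMM (adjusted p = 0.00421) and lower with total count (log2 fold change -0.53, adjusted p = 0.0101). miR-103-3p and miR-107-3p did not pass (adjusted p = 0.933 and 0.942), and since their counts lay within 10% of each other in every library they may share reads.

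Of the most abundant miRNAs, miR-26-5p and miR-22-3p were higher on the later side. miR-26-5p, which represses cyclins in human liver cancer cells, was at 150579, 368060 and 502358 CPM in 28d and 2y livers and at 61878, 87205 and 144134 CPM in 1d and 14d livers. The sides came close without overlapping, and the rise was 3.64-fold (log2 fold change 1.86 ± 0.29 SE, adjusted p = 0.000575). miR-22-3p, a repressor of nuclear receptor signalling and growth in several mammalian cell types, was at 78803, 253932 and 358255 CPM in 28d and 2y livers and at 23638, 75772 and 154734 CPM in 1d and 14d livers. Its libraries overlapped, so it was not held, though it passed over the 6 and 6 libraries (4.04-fold, adjusted p = 0.000838). The largest step of miR-22-3p was between 1d and 14d.

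miR-101-3p, which represses the histone methyltransferase EZH2 in human cells, had the smallest adjusted p of the 345 tests. It was at 9500, 13831 and 15728 CPM in 28d and 2y livers and at 1482, 2900 and 4800 CPM in 1d and 14d livers, a 5-fold rise (log2 fold change 2.32 ± 0.16 SE, adjusted p = 1.1e-05). The later libraries lay at about the same level at 28d and 2y, whereas 14d livers, at a mean of 1688 CPM, were lower than 1d livers, at 4238 CPM. Its other arm, miR-101-5p, fell (adjusted p = 0.000575), at 1.26 to 3.75 CPM in 28d and 2y livers and 1.19 to 58.2 CPM in 1d and 14d livers. miR-30a-5p, of a family that restrains autophagy genes in human cells, was at 54369, 60354 and 63992 CPM in 28d and 2y livers and at 14529, 19345 and 22768 CPM in 1d and 14d livers. Its rise was 3.15-fold (log2 fold change 1.65 ± 0.15 SE, adjusted p = 3.13e-05), with a narrow range on each side and no overlap. With total count it was not called (log2 fold change 0.45, adjusted p = 0.0823). Of the 8 tested miR-30 forms 3 rose and 0 fell, against 0 rises and 5 falls with total count. miR-30e-5p was at 59868, 62702 and 101928 CPM in 28d and 2y livers and at 10757, 35897 and 80572 CPM in 1d and 14d livers, with overlap, and was 2.22-fold higher (adjusted p = 0.0016), with a log2 fold change of 0.00 by total count.

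miR-190-5p, an intronic miRNA of a talin gene in mammals, was at 228, 298 and 478 CPM in 28d and 2y livers and at 23.5, 56.8 and 109 CPM in 1d and 14d livers. It rose 6.12-fold (log2 fold change 2.61 ± 0.27 SE, adjusted p = 4.63e-05), and its other arm miR-190-3p, at 27.6 to 75.5 CPM in 28d and 2y livers and 3.28 to 14.3 CPM in 1d and 14d livers, rose 5.32-fold (adjusted p = 9.54e-05). Both arms were thus held in the same direction, with the lowest level at 14d. miR-1388-5p, known from birds, fish and amphibians but not from mammals, was at 272, 384 and 662 CPM in 28d and 2y livers and at 22.7, 79.2 and 209 CPM in 1d and 14d livers. Its rise of 5.86-fold (log2 fold change 2.55 ± 0.29 SE, adjusted p = 9.54e-05) was spread over steps of 2.28 between 1d and 14d and 1.31 between 14d and 28d on the log2 scale. miR-1388-3p, the other arm, was 4.07-fold higher (adjusted p = 0.00106) and was not held.

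The remaining held rises were smaller or less abundant. miR-146c-5p, of a family induced by NF-kappaB in human immune cells, was at 22290, 27979 and 55213 CPM in 28d and 2y livers and at 5426, 10080 and 12028 CPM in 1d and 14d livers (3.50-fold, adjusted p = 0.000389). miR-10a-5p, whose gene lies among the Hox genes, was at 14665, 16048 and 18881 CPM in 28d and 2y livers and at 2909, 5942 and 9897 CPM in 1d and 14d livers (2.86-fold, adjusted p = 0.000206). Both arms of the miR-146c and miR-10a hairpins were held, with rises of 2.05-fold for miR-146c-3p and 2.63-fold for miR-10a-3p. miR-32-5p, which shares its seed with miR-92 in mammals, was at 40.5, 59.0 and 105 CPM in 28d and 2y livers and at 6.73, 9.59 and 13.3 CPM in 1d and 14d livers (6.87-fold, adjusted p = 4.51e-05). miR-140-5p, a cartilage miRNA in mice, rose 3.27-fold (adjusted p = 3.13e-05). miR-338a-3p and miR-338b-3p rose 3.15-fold and 3.29-fold, and since their ratio was 0.986 to 1.26 in all libraries their reads may be shared.

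Held falls were led among abundant miRNAs by miR-222a-3p, which represses the cell cycle inhibitor CDKN1B in human cells. It was at 360, 596 and 2989 CPM in 28d and 2y livers and at 4198, 8845 and 23496 CPM in 1d and 14d livers. The highest later library, a 2y one, was still below the lowest earlier one, and the difference was 11.2-fold (log2 fold change -3.49 ± 0.43 SE, adjusted p = 0.000158). Of the 4 tested forms of miR-221 and miR-222, 0 rose and 3 fell, and all 4 fell with total count. miR-221-3p was at 316, 708 and 1710 CPM in 28d and 2y livers and at 1078, 1852 and 4185 CPM in 1d and 14d livers, a 2.72-fold fall with overlapping libraries (adjusted p = 0.00399). miR-222a-5p, the other arm, fell 3.88-fold (adjusted p = 0.00306) without being held.

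The miR-17-92 and paralog clusters are driven by MYC and promote cell proliferation in mammals. Of 19 tested forms 11 fell and 2 rose, with a median log2 fold change of -1.27, against 12 falls and 0 rises with total count. miR-92-3p, the most abundant of them, was at 3208, 8716 and 11554 CPM in 28d and 2y livers and at 15532, 22460 and 74911 CPM in 1d and 14d livers, a 3.68-fold fall without overlap (log2 fold change -1.88 ± 0.33 SE, adjusted p = 0.00109) that was not held in all 4 pairs. miR-20b-5p was at 52.4, 90.1 and 121 CPM in 28d and 2y livers and at 107.1, 353 and 705 CPM in 1d and 14d livers, a 3.25-fold fall with overlap (adjusted p = 0.000229). miR-106-3p was held, at 9.62, 14.4 and 17.1 CPM in 28d and 2y livers and at 19.8, 119 and 315 CPM in 1d and 14d livers (6.91-fold, adjusted p = 4.51e-05). Its decline was already large at 14d, at 36.8 CPM against 251 CPM at 1d. miR-92-5p fell 8.43-fold and was held, at 0.348 to 8.44 CPM in 28d and 2y livers and 24.8 to 63.7 CPM in 1d and 14d livers. miR-18b-3p was held at 0.116 to 1.26 CPM in 28d and 2y livers, near the limit of 3 counts, and at 2.02 to 17.1 CPM in 1d and 14d livers, so no fold is given. The 11 falls were both arms of miR-106, miR-18b, miR-20b, miR-363 and miR-92, and miR-18a-3p. No form of miR-17, miR-19 or miR-20a fell with TMM. The 2 rises were miR-20a-5p (1.90-fold, adjusted p = 0.00174) and miR-19b-3p (1.75-fold, adjusted p = 0.0318), and with total count both had negative log2 fold changes (-0.27 and -0.34) and were not called.

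miR-15c-5p, of the miR-15 and miR-16 family that represses cyclins and BCL2 in mammals, was at 426, 630 and 878 CPM in 28d and 2y livers and at 1921, 2335 and 3744 CPM in 1d and 14d livers. The sides lay well apart, and the fall was 4.06-fold (log2 fold change -2.02 ± 0.23 SE, adjusted p = 9.54e-05). The family as a whole was mixed, with 5 falls and 1 rise among 10 tested forms and 7 falls and 0 rises with total count. The rise was miR-15a-5p, at 619, 819 and 1208 CPM in 28d and 2y livers and at 374, 459 and 576 CPM in 1d and 14d livers (1.79-fold, adjusted p = 0.000575), which had a log2 fold change of -0.38 with total count and was not called.

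Most other held falls were the less abundant arms of their hairpins. Such arms made up 7 of the 11 held falls (63.6%), 5 of the 21 held rises (23.8%) and 104 of the 345 tested miRNAs (30.1%). Among all miRNAs that passed over the 6 and 6 libraries, the less abundant arms were 25 of 63 falls and 19 of 69 rises. The more abundant arms were 29 of the 63 falls and 47 of the 69 rises. miR-148a-5p was at 43.3, 89.5 and 162 CPM in 28d and 2y livers and at 275, 509 and 710 CPM in 1d and 14d livers, a 5.83-fold fall (log2 fold change -2.54 ± 0.21 SE, adjusted p = 2.66e-05), while miR-148a-3p rose. Another name form of this 5p arm, conserve-miR-148a-1-5p, was higher with TMM, so the fall is that of the pigeon name alone. miR-26-3p was at 34.8, 54.2 and 76.0 CPM in 28d and 2y livers and at 97.5, 186 and 260 CPM in 1d and 14d livers, a 3.33-fold fall (log2 fold change -1.73 ± 0.18 SE, adjusted p = 4.63e-05), while miR-26-5p rose. miR-128-5p fell 4.44-fold and miR-454-5p 8.30-fold, with all later libraries under 11 and 7 CPM. miR-210-5p, the more abundant arm of the hypoxia-induced miR-210 hairpin, fell 2.40-fold (adjusted p = 0.00166). miR-205b-5p, whose other arm is not among the miRNA names, had no count in 4 of the 6 later libraries and at most 0.464 CPM in the others, against 2.17 to 8.62 CPM in 1d and 14d livers.

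Which held miRNAs stayed held when single libraries were left out differed. Leaving out each of the 12 libraries in turn, 13 of the 21 rises and 4 of the 11 falls were held every time. The 4 falls were miR-15c-5p, miR-128-5p, miR-148a-5p and miR-454-5p. miR-215-5p was no longer held without any 1 of the 3 libraries of 14d or the 3 of 28d. miR-26-5p was not held without any 1 library of 14d, 28d replicates 2 or 3, or 2y replicates 1 or 3. miR-1388-5p was not held without 14d replicates 1 or 2, 28d replicates 1 or 3, or 2y replicate 2, and miR-222a-3p without 14d replicates 1 or 3 or 2y replicates 2 or 3. miR-146c-5p lost it without 1d replicate 3, 28d replicate 1 or 2y replicate 3, miR-190-3p without 1d replicates 1 or 2 or 2y replicate 1, miR-10a-5p without 14d replicates 1 or 2, and miR-26-3p without 14d replicates 2 or 3 or 28d replicate 3. miR-106-3p lost it without 14d replicates 1 or 3 or any 2y library. The least steady were miR-146c-3p and miR-18b-3p, held in 4 of the 12 fits, miR-205b-5p in 2, and miR-10a-3p, miR-210-5p and miR-92-5p in 1 each.

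The arms of a hairpin are counted in one library, so their ratio does not depend on the scaling. Of 87 hairpins with a mean of at least 10 counts on each arm, 23 differed in the log2 ratio of 5p to 3p counts between the sides (26.4% of those tested, two-sided exact permutation test of 6 against 6 libraries, adjusted p under 0.05). The test takes the 6 libraries of a side as exchangeable although they come from 2 ages. The 6 and 6 libraries did not overlap for 14 of the 87 (16.1%). In 21 of the 23 the more abundant arm gained on the less abundant one in 28d and 2y livers (24.1% of those tested), and in 2 (2.3%), miR-145 and miR-222a, it lost. Over all 87 hairpins, called or not, 59 moved toward the more abundant arm and 28 toward the less abundant one. With a mean of at least 50 counts on each arm, 15 of 61 hairpins passed, 13 of them toward the more abundant arm. In 7 hairpins the arms were called in opposite directions in CPM, and in all 7 the more abundant arm rose and the less abundant fell. The ratio itself passed in 6 of them and not in miR-130a (adjusted p = 0.124). In miR-101, also among the 7, the 5p arm moved most between 1d and 14d. How arms were told apart in the authors' counting was not tested.

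Among the hairpins that passed, the largest shift toward 3p was in miR-148a. Its log2 ratio of 5p to 3p counts was -12.6, -11.9 and -10.3 in 28d and 2y livers and -7.49, -7.17 and -6.68 in 1d and 14d livers (lowest, median and highest). Sides did not overlap, the difference was -4.70 and the adjusted p was 0.0135, from the smallest p that splits of 6 against 6 allow, 0.00216. The 5p arm was 0.0328 ± 0.0242% of the hairpin's counts in 28d and 2y livers and 0.740 ± 0.199% in 1d and 14d livers (SD, n = 6 each). A form with the conserved prefix, conserve-miR-148a-1-5p, had 31.3% of the mean count of miR-148a-5p and was 2.06-fold higher in 28d and 2y livers with TMM and at a log2 fold change of -0.17 with total count. With both forms summed, a choice made after seeing the data, the difference was -3.39 (exact permutation p = 0.00216). The mean log2 ratio was then -10.3 in 28d and 2y livers and -6.90 in 1d and 14d livers. Without the conserved form those means were -11.8 and -7.11, so adding it changed the later side more. miR-101 shifted by -3.93 and miR-338a by -2.88 toward 3p, both without overlap and with adjusted p = 0.0135. By age the mean log2 ratio of miR-101 was -6.40 (1d), -10.2 (14d), -12.5 (28d) and -12.0 (2y). Its largest step was thus between 1d and 14d, within the earlier side.

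Toward 5p, miR-26 had a log2 ratio of 11.2, 12.8 and 13.2 in 28d and 2y livers and 7.99, 9.20 and 9.88 in 1d and 14d livers. The difference was 3.50 without overlap (exact permutation, adjusted p = 0.0135), and 3.43 with its other name form added. miR-32 shifted by 1.80, also without overlap. Of the hairpins that passed, conserve-miR-5589 had the largest difference toward 5p, 6.41, but its 3p arm had counts in 1 library only, where it had 400, so in the other 11 libraries the ratio follows the 5p counts alone. miR-145 went the other way from most, toward its less abundant 3p arm, which was 31.5 ± 6.02% of the hairpin's counts in 28d and 2y livers and 9.70 ± 9.09% in 1d and 14d livers. Its log2 ratio of 5p to 3p was 0.65 to 1.59 in 28d and 2y livers and 1.91 to 5.44 in 1d and 14d livers, so the sides did not overlap.

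**Figure D4:**
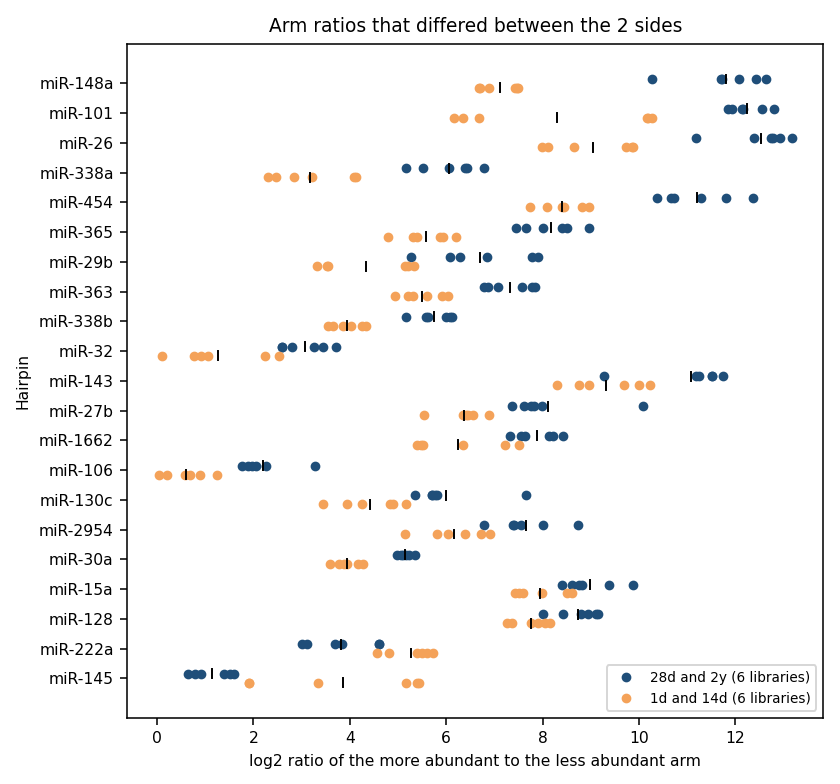
Log2 ratio of the counts of the more abundant to the less abundant arm for the 21 hairpins with pigeon names that differed between the sides, 1 point per library, dark blue for 28d and 2y and orange for 1d and 14d, with a black tick at each mean. In miR-148a to miR-128 the later libraries have the higher ratios, and in miR-222a and miR-145 the lower ones.

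Lists of miRNA families that mark other cell types were counted in the same fit. The shares over all 345 miRNAs were 20% higher and 18.3% lower with TMM, and 5.8% and 43.5% with total count. Leukocyte miRNAs (miR-142, miR-146 and miR-155) had 7 rises and 0 falls among 9 tested forms, with a median log2 fold change of 1.36, against 1 rise and 1 fall with total count. miR-142-3p, a marker of blood cells, was at 549, 587 and 1481 CPM in 28d and 2y livers and at 113, 316 and 737 CPM in 1d and 14d livers. The rise was 2.76-fold (adjusted p = 0.000848) with overlap, and the low values were those of 14d, at a mean of 133.1 CPM. miR-146b-5p was at 2541, 3506 and 19619 CPM in 28d and 2y livers and at 865, 1257 and 1548 CPM in 1d and 14d livers (5.2-fold, adjusted p = 0.000896). It did not overlap and was not held. miR-155-5p did not pass, at 12.6 to 72.1 CPM in 28d and 2y livers and 19.8 to 89.9 CPM in 1d and 14d livers.

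The raw share of counts held by a list is its part of the library total, so it follows the scaling by total count alone and not TMM. The leukocyte list had 4.09 ± 2.56% of counts in 28d and 2y livers and 2.93 ± 1.40% in 1d and 14d livers (SD, n = 6 each). The mesenchymal list had 13.4 ± 3.78% in 28d and 2y livers and 6.75 ± 2.47% in 1d and 14d livers, and ranged from 7.58 to 19.1% in 28d and 2y livers and from 3.85 to 9.47% in 1d and 14d livers, with overlap. The hepatocyte-enriched list had 19.1 ± 3.41% in 28d and 2y livers and 11.9 ± 6.62% in 1d and 14d livers. By age it had 17.8 ± 2.34% (1d), 6.03 ± 0.381% (14d), 20.9 ± 4.24% (28d) and 17.4 ± 1.35% (2y) (SD, n = 3 each). The 1d mean was thus close to those of the later side, and the low mean was that of 14d. The leukocyte ranges overlapped, at 2.20 to 8.99% in 28d and 2y livers and 1.53 to 4.94% in 1d and 14d livers. Endothelial miR-126 was called in both arms, at 1.58-fold for miR-126-3p and 2.18-fold for miR-126-5p, and with total count the log2 fold changes were -0.59 (adjusted p = 0.00753) and -0.07 (adjusted p = 0.860). The rise of miR-126-3p did not pass without 28d replicate 1 (adjusted p = 0.0517). The part of cell composition in the held rises was not tested.

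Epithelial miRNAs (miR-31, miR-182, miR-96, miR-183, miR-205, miR-429 and miR-200) mark bile ducts and other epithelia. Among 11 tested forms 6 fell and 1 rose, with a median log2 fold change of -1.80, against 10 falls and 0 rises with total count. The 6 falls were miR-205a-5p, miR-205b-5p, miR-182-5p, miR-183-5p, miR-96-5p and miR-31-5p. No form of miR-200 or miR-429 fell with TMM, while with total count every tested form but miR-200a-3p fell. miR-205a-5p was at 2.67, 32.0 and 130 CPM in 28d and 2y livers and at 276, 424 and 2252 CPM in 1d and 14d livers. It fell 14.4-fold (log2 fold change -3.85 ± 0.78 SE, adjusted p = 0.00264) without overlap and without being held, and without 28d replicate 2 the log2 fold change was -4.48. The rise was miR-200a-3p, at 257, 305 and 701 CPM in 28d and 2y livers and at 105, 185 and 329 CPM in 1d and 14d livers (1.98-fold, adjusted p = 0.00694), and with total count it had a log2 fold change of -0.14 and did not pass. miR-31-5p fell 4.12-fold (adjusted p = 0.000944), with no later library above 18.7 CPM and no earlier one below 28.5 CPM.

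let-7, a family that marks the end of early development in many animals, was not of one direction. Of 14 tested forms 2 rose and 4 fell, with a median log2 fold change of 0.06, against 0 rises and 10 falls with total count. Over all 345 miRNAs 20% rose and 18.3% fell with TMM, and 43.5% fell with total count. let-7f-5p was at 56.9, 70.6 and 116 CPM in 28d and 2y livers and at 141.3, 269 and 950 CPM in 1d and 14d livers, a 3.90-fold fall without overlap (adjusted p = 0.00094). let-7d-5p fell 2.29-fold (adjusted p = 0.00694), and let-7g-5p was 2.24-fold higher with TMM (adjusted p = 0.0191) and at a log2 fold change of -0.18 with total count. let-7a-5p and let-7i-5p, more abundant forms, did not pass (adjusted p = 0.723 and 0.976). Of 4 forms of miR-181, a family active in lymphocyte development in mice, 2 fell and 0 rose, namely miR-181b-5p (2.78-fold, adjusted p = 0.00918) and miR-181a-3p (1.84-fold, adjusted p = 0.000968).

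Muscle forms (miR-1, miR-133 and miR-499) had 1 fall, miR-1a-3p (adjusted p = 0.045), and 0 rises among 6, and all 6 fell with total count. Of all 345 miRNAs 18.3% fell with TMM and 43.5% with total count. miR-133a-3p was at 383, 551.2 and 3421 CPM in 28d and 2y livers and at 534, 1396 and 3781 CPM in 1d and 14d livers and did not pass (adjusted p = 0.219), but without 28d replicate 3 it did, at a log2 fold change of -1.54 (adjusted p = 0.0139). miR-499-5p did not pass (adjusted p = 0.0623) and passed without 1d replicate 2 (adjusted p = 0.0342). Neural forms (miR-9, miR-124 and miR-137) had 2 falls and 0 rises among 4, against 3 falls with total count. miR-9-5p was at 21.5, 32.3 and 305 CPM in 28d and 2y livers and at 65.1, 322 and 603 CPM in 1d and 14d livers. Its call (adjusted p = 0.045) ended when any 1 library other than 28d replicate 1 was left out, and without that one the log2 fold change was -3.10 (adjusted p = 0.000186). Of the pancreas forms (miR-375, miR-216 and miR-217) 0 of 4 passed, and miR-375-3p, at 92.8 to 576 CPM in 28d and 2y livers and 39.1 to 552 CPM in 1d and 14d livers, passed only without 28d replicate 1 (adjusted p = 0.0345).

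Of the group of miR-125, miR-100, miR-99 and miR-10, 4 of 9 forms rose and 1 fell, against 0 rises and 4 falls with total count. miR-99-5p (2.70-fold, adjusted p = 0.0489) had 3467 CPM in 28d replicate 1 and 295 to 417 CPM in the other later libraries, against 123.8 to 560 CPM in 1d and 14d livers, and without that library the log2 fold change was 0.42 (adjusted p = 0.0297). The call ended without any 1 of the 3 libraries of 1d, 14d or 2y. miR-2954, a Z-linked miRNA that is higher in males in chicken and zebra finch, had 1 fall among 2 forms. miR-2954-3p did not pass (adjusted p = 0.105), at 2140, 3074 and 9620 CPM in 28d and 2y livers and 2327, 6228 and 18877 CPM in 1d and 14d livers, and passed without 28d replicate 1 (log2 fold change -1.13, adjusted p = 0.000448). The bird, fish and amphibian forms (miR-1388, miR-1662, miR-2188 and miR-456) had 3 rises and 1 fall among 8, against 1 rise and 3 falls with total count. miR-551b-3p rose 6.19-fold (adjusted p = 0.000807) without overlap and without being held, and with miR-190 it belonged to a list of 5 forms with 3 rises and 0 falls under both scalings. conserve-miR-2404-2-5p, the largest rise among those called and not held with at least 100 CPM on the later side, was at 0, 9.97 and 566 CPM in 28d and 2y livers and at most 2.13 CPM in 1d and 14d livers, and its call (adjusted p = 0.0439) ended when any 1 library other than 2y replicate 2 was left out, and without 2y replicate 1 its log2 fold change was 1.65.

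**Figure D5:**
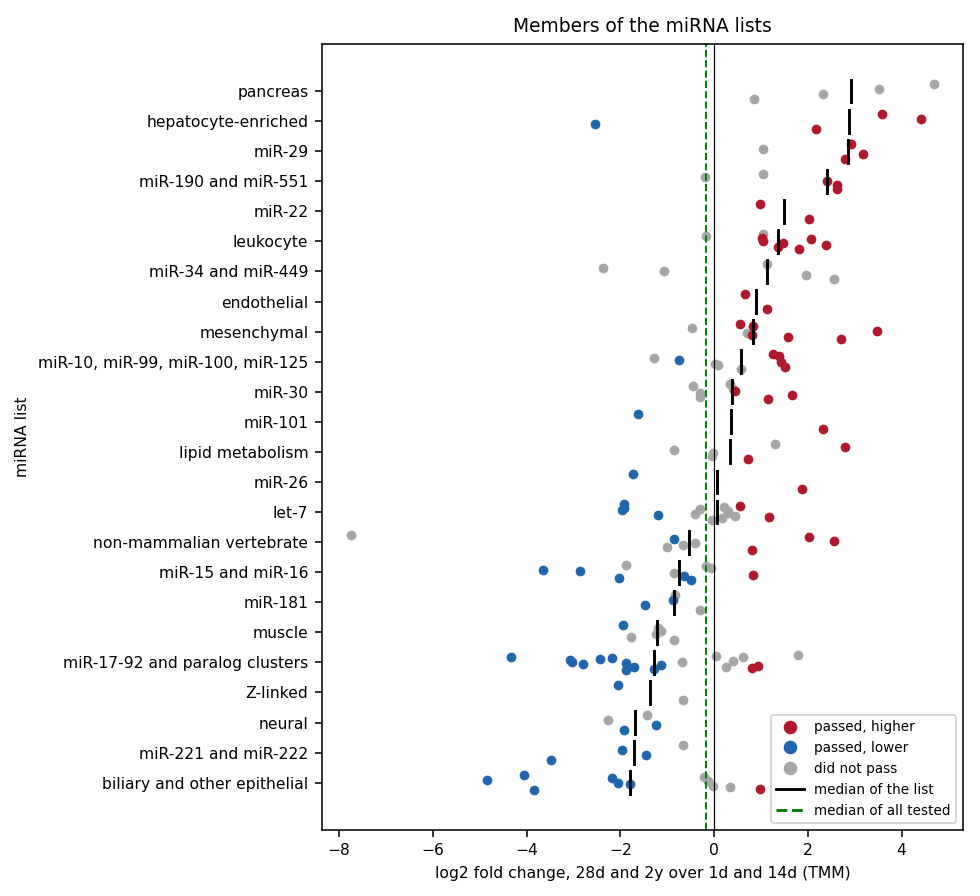
Log2 fold change (TMM) of 28d and 2y over 1d and 14d livers for the tested members of each miRNA list, 1 point per mature form, red where it passed as higher, blue where it passed as lower and grey where it did not pass. Black bars are list medians and the dashed green line is the median of all 345 miRNAs, at -0.18; with total count alone that median is -1.38, and rises in the leukocyte, endothelial, miR-30 and let-7 lists are largely not called.

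Fewer miRNA names had a count in the later livers. A count was found for 354 ± 42.1 names in 28d and 2y libraries and for 468 ± 39.9 names in 1d and 14d libraries (SD, n = 6 each; two-sided exact permutation test, adjusted p = 0.00649 over 3 measures). The ranges overlapped slightly, at 303 to 421 names in 28d and 2y libraries and 414 to 504 in 1d and 14d libraries, and with all libraries thinned to the smallest total the means were 331 and 453.5 names and did not overlap. The 10 most abundant miRNAs held 83.7 ± 4.27% of counts in 28d and 2y libraries and 70.9 ± 1.34% in 1d and 14d libraries (adjusted p = 0.00649), without overlap. Total counts, at 3100273 to 9393075 in 28d and 2y libraries and 3622530 to 7088182 in 1d and 14d libraries, did not pass (adjusted p = 0.0584), though they did without 14d replicate 3 (adjusted p = 0.0411) or 28d replicate 3 (adjusted p = 0.00866). As for the arm ratios, these tests took the 6 libraries of a side as exchangeable although they come from 2 ages. The part of the more concentrated libraries in the scaling of the other miRNAs was not tested.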

How the data were processed

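Liver small RNA of 12 pigeons was sequenced, 3 per age. Per the labels' protocols, RNA was taken up in TRIzol, small RNA was selected on a gel, and libraries were read from 1 end on an Illumina instrument. The submitters' processing notes name Bowtie. Which version and genome build were used, and how reads matching more than 1 miRNA were assigned, is not given in the sources used here. Raw read counts of mature miRNAs were deposited by the authors, per the file headers.

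The fit was made in edgeR 4.0.16 (R 4.3.3): filterByExpr with ages as groups, TMM scaling, one mean per age, robust quasi-likelihood fit and Benjamini-Hochberg adjustment over 345 miRNAs. The pooled contrast weighs both ages of a side equally. The common biological coefficient of variation was 0.807. Every adjusted p of a single miRNA comes from this fit unless DESeq2 1.42.0 or limma 3.58.1 is named. Where total count or a left-out library is named, it comes from the edgeR fit rerun with that change. Arm ratios added 0.5 to each count and used exact permutation over all splits of 6 against 6 libraries, adjusted over 87 hairpins. Such splits ignore that each side holds 2 ages, so their p-values do not measure the spread between birds of 1 age alone. A count of 0 allows up to 3 counts, or 0.326 to 1.90 CPM by library, for counting error only. Birds are separate replicates within an age. Scripts were tested on simulated data.

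The comparison, the lists and the rules were chosen with earlier results of these data known. The text names by rule the 10 largest held rises and falls with at least 100 CPM on the higher side, up to 2 members of each list, the 5 most abundant miRNAs, the 3 largest rises and falls called and not held, and the 3 largest arm shifts each way. The other held miRNAs, other list members and other hairpins were named after their values were seen. Some miRNA families are not reported here. The embryonic list (miR-302 and miR-367) had 0 tested members, and of the miR-23 forms 1 was tested, miR-23b-3p, which did not pass (adjusted p = 0.124). Of the miR-34 and miR-449 list 0 of 5 passed, miR-34a-5p at adjusted p = 0.0784 included, which passed without 28d replicate 2 (adjusted p = 0.0086).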

Additional observations from a re-analysis of the deposited data

Results flagged for a closer look

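Among 98 values, the 49 named miRNAs and measures on each side, 9 had 1 library set apart from the other 5 of its side by a gap above Dixon's critical share of the range. Chance sets apart about 1 in 20 where the values are normal and come from 1 population. CPM from sides of 2 ages need not meet that, so the rate is a rough guide. In 28d replicate 1, miR-145-3p was at 1386 CPM against 407 to 607 CPM in the other 28d and 2y libraries. The same library had 101928 CPM of miR-30e-5p against 59868 to 71192 CPM, and 701 CPM of miR-200a-3p against 257 to 332 CPM. It also had 305 CPM of miR-9-5p against 21.5 to 41.6 CPM, 3467 CPM of miR-99-5p against 295 to 417 CPM, and 9620 CPM of miR-2954-3p against 2140 to 3315 CPM. In 28d replicate 3, miR-101-3p was lowest at 9500 CPM against 13353 to 15728 CPM, and miR-133a-3p highest at 3421 CPM against 383 to 673 CPM. On the other side, 14d replicate 1 had 2252 CPM of miR-205a-5p against 276 to 518 CPM in the other 1d and 14d libraries. Both miR-145-3p and miR-101-3p were held without the library named.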

How the results depend on the processing

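With total count alone in place of TMM, there were 20 rises, 150 falls, 0 held rises and 45 held falls; the cause was not tested. Without a filter 10 miRNAs were held higher and 5 lower, and DESeq2 gave 19 held falls, and the cause was not tested. Without 1d replicates 2 and 3, 1d replicate 1 is the only library of its age, so no counts are given. The median log2 fold change of all miRNAs tested was -0.17 in that fit and -0.18 in the main one. Relative log expression factors gave 60 rises and 75 falls, upper-quartile factors 56 and 74, DESeq2 74 and 85, limma voom 69 and 69, a stricter filter 55 and 52, no filter 46 and 43, and one mean per side 50 and 51. Leaving out 1 library gave 54 to 71 rises, 46 to 65 falls, 15 to 21 held rises, 4 to 18 held falls and 17 to 31 hairpins; 15 hairpins passed with at least 50 counts per arm. The difference in total count was 2027210 to 3285770, in names with a count -127.0 to -103.4, and in the share of the 10 most abundant 12.1 to 14.4 percentage points. Among the 46 miRNAs named by rule, the log2 fold changes that turned negative with total count were those of miR-15a-5p (-0.38), miR-27b-3p (-0.53), miR-126-5p (-0.0716), miR-126-3p (-0.59), miR-200a-3p (-0.14) and, passing in neither, miR-23b-3p (-0.67) and miR-375-3p (-0.46). Among the others in the text, those of miR-146c-3p (-0.12), miR-20a-5p (-0.27), miR-19b-3p (-0.34), let-7g-5p (-0.18), let-7a-5p (-1.16), miR-145-5p (-0.37), miR-29b-5p (-0.17) and conserve-miR-148a-1-5p (-0.17) did. Of the fits of these 46 miRNAs under alternatives, 962 kept direction and side of the threshold, 71 lost the call, 15 gained one and 7 reversed.

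Replicate numbers are shared by the ages, but same-numbered libraries did not deviate together (correlations -0.133 to 0.410, mean 0.0536, over 18 pairs; -0.368 to 0.295, mean -0.0277, over 36 others), and 5 of 12 libraries correlated best with their own number. With a replicate block 61 miRNAs were higher, 48 lower, 18 held higher and 7 held lower. Depth limits the rarest arms, such as miR-18b-3p and miR-205b-5p, which lie near the limit of 3 counts on the later side.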
